A study of Gallus gallus with 12 samples.

Results

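The F5 follicles of 6 laying hens were described on their own, with no contrast between stages. They were chosen by their stage label, which marks 6 of the 12 libraries of the series as Pre-ovulatory F5, and all 6 were used. Each library came from follicular tissue of 1 follicle of 1 hen aged 12 months, and the follicles are named here by the bird numbers 5802, 5810, 5817, 5826, 5835 and 5840. The labels give no treatment and no genotype, and the breed and the handling of the yolk and oocyte are not given in the sources used here. Poly-A RNA was prepared with TruSeq chemistry and read as 100 bp pairs on a NovaSeq 6000, with an RNA integrity number above 7.8 required per the labels. Since each hen gave 1 F5 follicle, a difference between hens and a difference between follicles cannot be told apart.

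In the hen ovary, yolk-filled follicles form a graded hierarchy, and F5 stands near its lower end, some days before ovulation. Granulosa cells line the inside of the follicle wall around the oocyte and make progesterone, while the theca layers outside them hold androgen- and estrogen-producing cells, fibroblasts, blood vessels and smooth muscle. The wall is rich in collagen, which resists the growing yolk and is later broken down at the site of rupture by metalloproteinases. Inhibins, activins, anti-Müllerian hormone, hedgehog and WNT proteins are among the signals that ovarian cells exchange as follicles grow.

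Named genes received between 28044247 counts in hen 5802 and 40887647 counts in hen 5835. Of 12470 named genes, 11559 had a count in all 6 follicles, 728 in some of them and 183 in none. Levels are given as CPM, counts per 1000000 named counts, scaled by TMM so that the typical gene is equal among the 6 libraries. A mean of 4 CPM or more was reached by 9341 genes, called well expressed here, and they held 99.7% of all named counts. No pair of libraries was a repeat of another, with a chi-square per degree of freedom of 23.5 to 97.1 and correlations of log2 CPM of 0.966 to 0.988 across genes, which are not independent replicates. The counting error expected at these depths is given beside the spread among hens where it matters.

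The F5 transcriptome was led by transcripts of the mitochondrial genome, fibrillar collagens and actins. Ranks are by share of counts, in which longer transcripts take more reads, so they order reads and not molecules. MT-CO1, the first subunit of cytochrome c oxidase, ranked first in 6 of 6 hens and took 3.43% ± 0.281 of named counts (SD, n = 6). Its level was 29536 CPM at its lowest in hen 5817, 33985 CPM at the median and 38933 CPM at its highest in hen 5810. COL3A1, a chain of the fibrillar collagens, came second at 18560 ± 2462 CPM, with 20882 CPM and 21622 CPM in hens 5826 and 5810 and no more than 19689 CPM in the others.

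Among the 20 genes with the largest mean share, 8 were mitochondrially encoded and 4 were collagen chains (COL3A1, COL1A2, COL1A1 and COL4A1). The other 8 were ACTB, EMB, SPARC, ACTA2, SERPINH1, TPM1, EEF1A1 and MMP10. SERPINH1 encodes the chaperone that folds collagen in the endoplasmic reticulum, and SPARC a collagen-binding matrix protein. Embigin, encoded by EMB, is a membrane glycoprotein that escorts lactate and pyruvate transporters, and its level ranged from 8671 CPM in hen 5835 to 10569 CPM in hens 5802 and 5817. MMP10, which encodes stromelysin-2, a metalloproteinase, ranked 19th with 5838 CPM in hen 5810 and 5569 CPM in hen 5802, against 3642 to 4635 CPM in the other hens. The upper ranks were shared widely, with 8 genes in the top 10 of every hen and 83 genes in the top 100 of every hen.

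**Figure D1:**
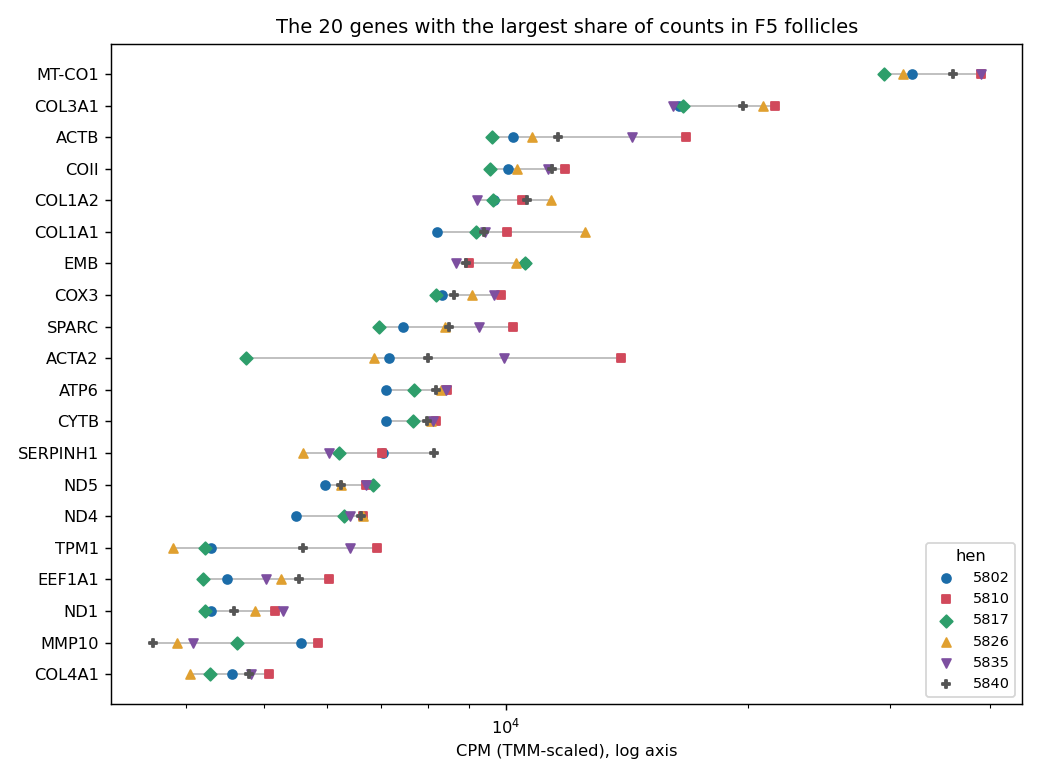
CPM of the 20 genes with the largest mean share of counts, on a log axis, 1 row per gene and 1 symbol per hen. MT-CO1 stands above all others in each hen, and ACTA2 has the widest row, from 4756 to 13886 CPM.

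Counts were concentrated in few genes. The 43 top genes by mean share held 25% of counts, the 412 top genes 50% and the 4439 top genes 90%. Within single follicles, 50% of counts took 341 genes in hen 5810 and 468 genes in hen 5817. The 10 top genes of a library held 13.2% ± 0.787 (SD, n = 6), and the 100 top genes held 33.3%. Hen 5810 had the most concentrated library, with 35.6% of its counts in 100 genes, and hen 5817 the least, with 31.7%.

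By class, the 13 mitochondrially encoded genes took 9.41% ± 0.398 of named counts (SD, n = 6). The next classes were 26 collagens with 5.8% ± 0.457, 70 cytoplasmic ribosomal proteins with 4.55% ± 0.38 and 97 heat shock and endoplasmic reticulum chaperones with 4.18% ± 0.526. Matrix glycoproteins and proteoglycans held 3.24% ± 0.0678 and smooth muscle contractile genes 2.94% ± 0.657, a class of 20 genes led by ACTA2. The actin, tubulin and thymosin class held 2.07% ± 0.266, of which ACTB alone made up 1.21% of named counts. The 11716 genes outside every class took 58.6% ± 1.5.

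Smaller classes included the products that mark the follicle wall. Metalloproteinases and their inhibitors took 0.884% ± 0.0581 (SD, n = 6), with MMP10 at 0.461%. Steroid hormone synthesis took 0.545% ± 0.0676, of which CYP19A1, the aromatase that makes estrogen, held 0.225%. Lysosomal cathepsins and hydrolases took 0.605% ± 0.128, cell cycle genes 0.281% ± 0.045, and iron storage and transport genes 0.208% ± 0.0267, most of it FTH1, the ferritin heavy chain, at 0.159%.

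Some class shares were nearly constant among hens and others were not. Matrix glycoproteins ranged from 3.19% to 3.37%, glycolysis and hypoxia genes from 0.567% to 0.6% and proteasome genes from 0.735% to 0.789%. The lysosomal share was 1.71 times higher in hen 5835, at 0.742%, than in hen 5802, at 0.435%, and hen 5817 was the next lowest at 0.467%. The smooth muscle share was 1.68 times higher in hen 5810, at 3.89%, than in hen 5817, at 2.32%. The cell cycle share ran the other way, lowest in hen 5810 at 0.215% and highest in hen 5817 at 0.328%.

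**Figure D2:**
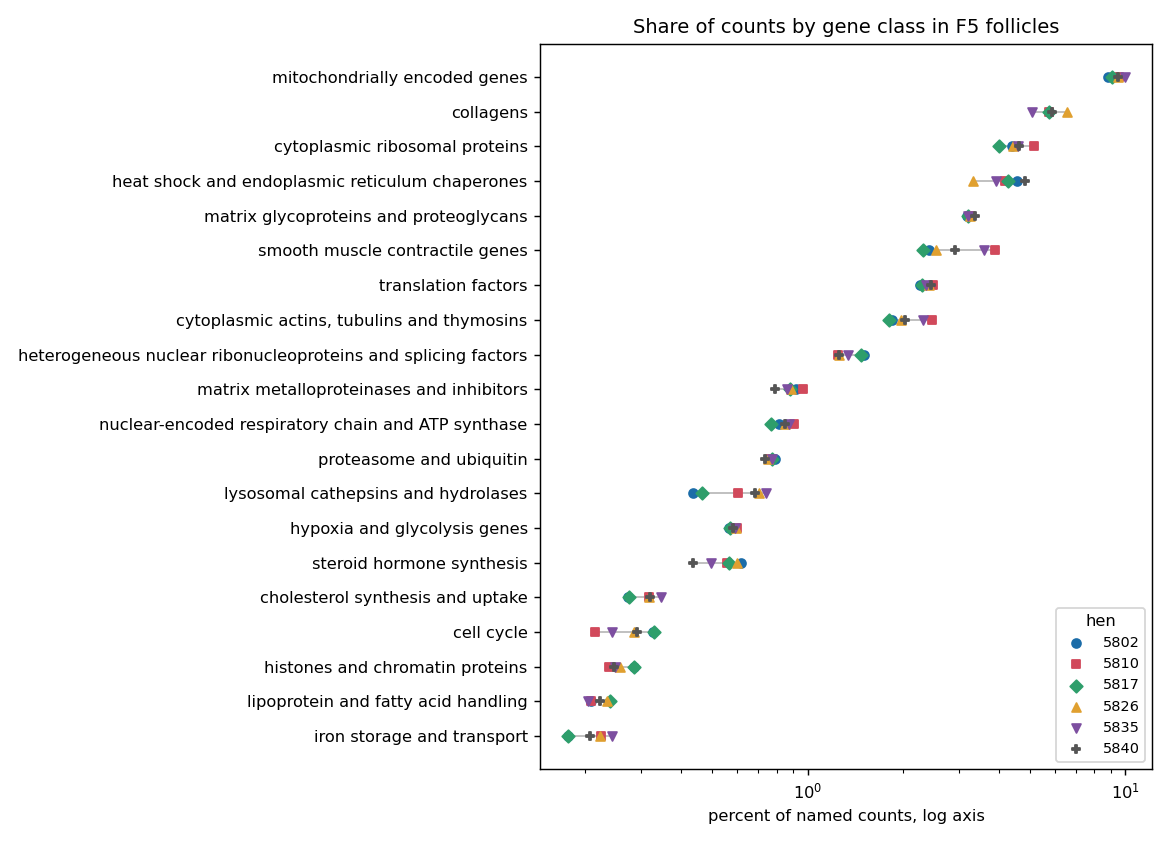
Percent of named counts in 20 gene classes, on a log axis, 1 symbol per hen. Lysosomal and smooth muscle classes spread most widely, while matrix glycoproteins stayed between 3.19% and 3.37%.

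Markers of the wall's cell types were present in all 6 follicles. Granulosa markers had 19 of 20 listed genes in the table well expressed, theca markers 12 of 14, fibroblast markers 16 of 16, smooth muscle markers 19 of 20 and endothelial markers 13 of 14. Of all named genes, 9341 of 12470 were well expressed, so most members of almost any list would be. These counts were not tested and do not by themselves mark a cell type. In bulk tissue, fewer cells of a type and less RNA per cell cannot be told apart. The summed level of endothelial markers was the steadiest of these, at 868 to 945 CPM, and CDH5, the cadherin of endothelial junctions, lay between 153 and 164 CPM. T and natural killer cell markers were mostly low, with 12 of 15 under 4 CPM and CD3E, a chain of the T cell receptor complex, between 1.95 and 4.58 CPM. Of nerve and surface epithelium markers, 9 of 16 and 5 of 10 were under 4 CPM, and 1 of each list was at 0 in every hen.

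The typical gene varied little among the 6 hens. The SD of log2 CPM had a median of 0.16 and quartiles of 0.11 and 0.23 over the well-expressed genes, and only 131 of them (1.4%) varied no more than counting error. An SD of 0.5 or more was reached by 334 of 9341 genes (3.58%), called variable here, and an SD of 1 or more by 67. Around that limit, CD9 lay just outside with 0.499 and CCNJL just inside with 0.5004, and at 4 CPM the neighbours were TUSC3 with 3.997 CPM outside and NR4A1 with 4.006 CPM inside. Variable genes were mostly of low abundance: 11.9% of genes with a mean of 4 to 10 CPM were variable, 3.73% at 10 to 30 CPM and 1.66% at 30 to 100 CPM. At 1000 CPM or more, 3 of 106 genes were variable, namely ACTA2, CYP19A1 and ACTG2, the gamma actin of smooth muscle.

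**Figure D3:**
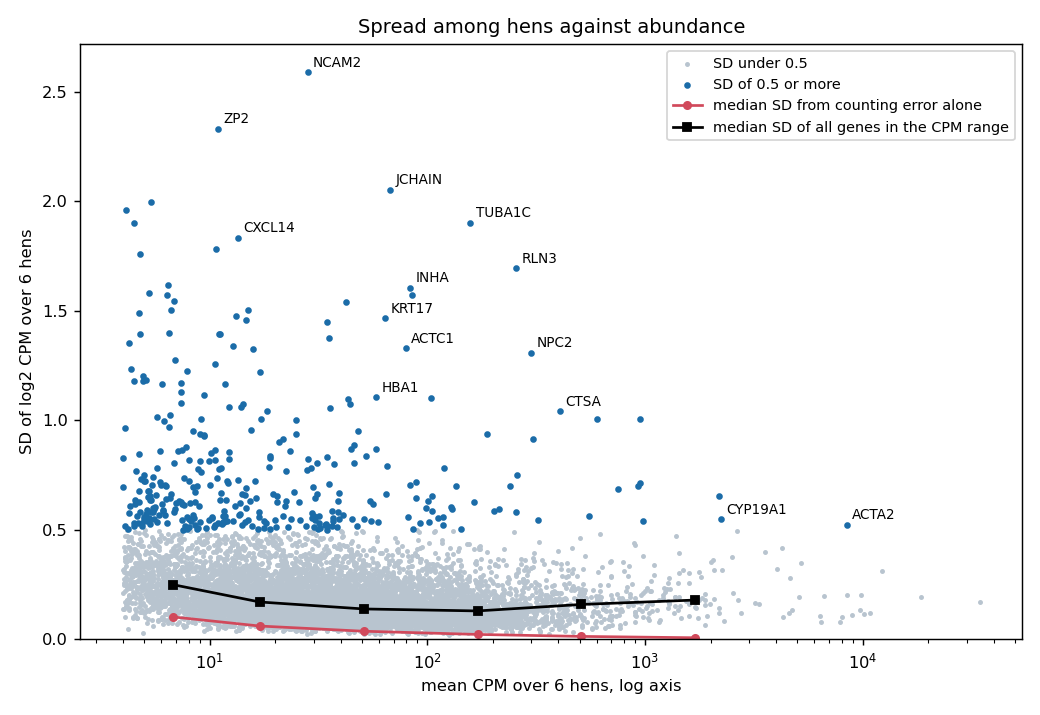
SD of log2 CPM over 6 hens against mean CPM on a log axis, 1 point per well-expressed gene; blue points have an SD of 0.5 or more, squares mark the median SD and red circles the median counting error in each CPM range. The labelled genes stand far above both lines, and NCAM2 is highest with an SD of 2.59.

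Hens were not alike in how they contributed to the spread. Of the 334 variable genes, 140 (41.9%) were lowest in hen 5802 and 101 (30.2%) were highest in hen 5835, whereas over all well-expressed genes 17.2% were lowest in hen 5802 and 15.7% highest in hen 5835. The first principal component of all well-expressed genes held 46.7% of their variance. It gave hens 5802 and 5817 scores of -22.8 and -18.3, against 4.4 to 17.4 in the other 4 hens. Hen 5802 had the shallowest library and hen 5817 the third deepest, with 30871491 counts. Without both of these hens, left out after their values were seen, 222 genes were variable among the remaining 4. A lower count follows from that choice and carries no test. Why the follicles of hens 5802 and 5817 stand apart was not tested.

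Groups of variable genes that moved together were formed by average linkage on their correlations over the 6 hens, and 9 groups of 10 or more genes held 243 of the 334. These groups were drawn from the values they describe, so they carry no test. A correlation above 0.9 was found in 5.44% of pairs of variable genes and 1.66% of all pairs of well-expressed genes. With 6 points per gene, all from the same libraries, high correlations are common.

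**Figure D4:**
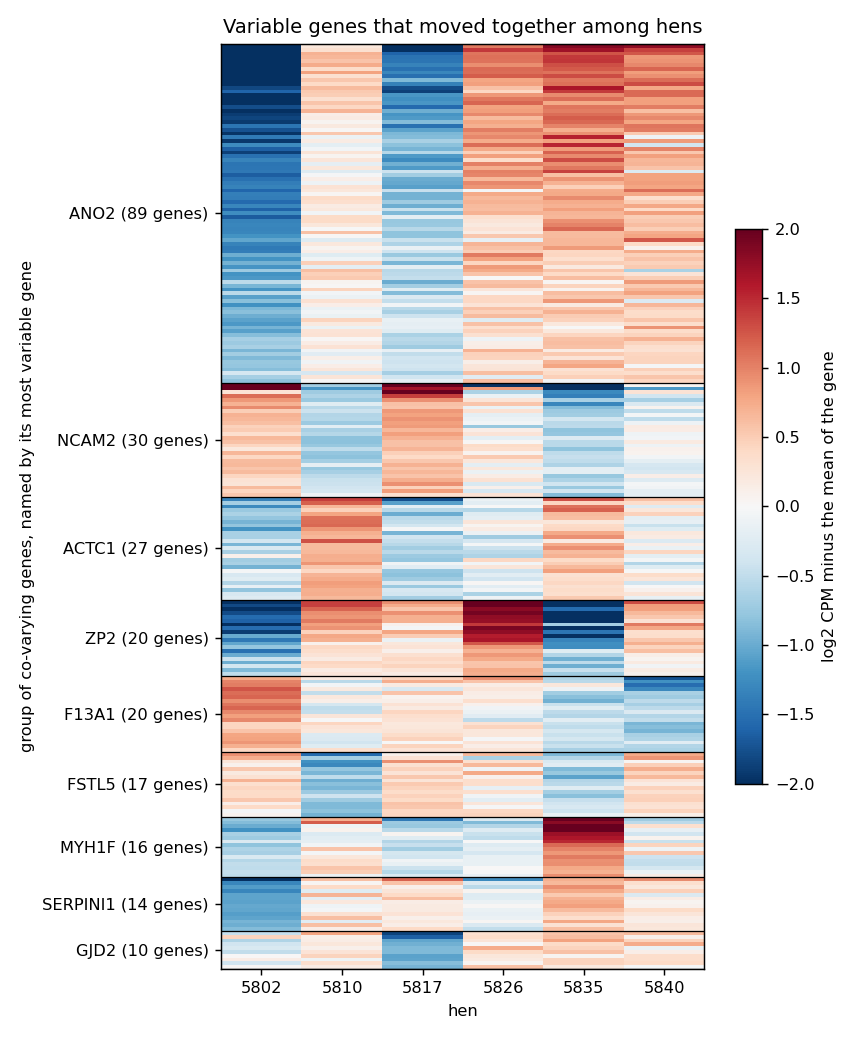
Log2 CPM minus the gene's mean over 6 hens, for 9 groups of co-varying variable genes (rows, named by their most variable gene) and 6 hens (columns). The largest group, 89 genes with ANO2, is blue in hens 5802 and 5817 and red in hens 5826, 5835 and 5840; the 20 genes with ZP2 are red in hen 5826 and blue in hens 5802 and 5835.

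The largest group held 89 genes with a median pair correlation of 0.92, and 83 of them were lowest in hen 5802. It held signalling genes of the follicle. INHA, the inhibin alpha subunit made by granulosa cells, was at 9.88 CPM in hen 5802 and 20.7 CPM in hen 5817, against 84.5 to 154 CPM in the other 4 hens. The gene for relaxin-3, RLN3, was at 27 and 56.7 CPM in hens 5802 and 5817 and at 277 to 407 CPM in the others. WNT4, a secreted WNT ligand, was at 5.18 and 12.2 CPM in those hens and at 53.2 to 66 CPM in the others. For each of these genes the levels of the 5802 and 5817 follicles were separated from the other 4 by a wide gap.

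The same group contained IHH, the Indian hedgehog ligand, with 2.23 and 3.69 CPM in hens 5802 and 5817 and 13.2 to 26.2 CPM in the others. The hedgehog receptor PTCH1 and the hedgehog-responsive factor GLI1, theca-list genes that are not in the group, did not show that gap: PTCH1 ranged from 17.4 to 28.5 CPM and was highest in hen 5802, and GLI1 ranged from 10.5 to 22 CPM and was highest in hen 5817. INHBB, the beta-B subunit of inhibin and activin, was at 5.95 CPM in hen 5802, 13.5 CPM in hen 5817 and 21.2 to 32.4 CPM in the others. NR5A2, a nuclear receptor that regulates steroidogenic genes, measured 16.8 and 21.6 CPM in hens 5802 and 5817 and 38.2 to 70.5 CPM in the others. STRA6, the cell-surface receptor for retinol transport, measured 0.696 and 1.55 CPM against 6.97 to 11.8 CPM.

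Genes of the lysosome and of lipid handling were members too. NPC2, which carries cholesterol out of lysosomes, was at 66.8 and 78 CPM in hens 5802 and 5817 and at 305 to 481 CPM in the others. The cathepsin gene CTSA was at 124 and 154 CPM against 397 to 703 CPM. VLDLR, known in hens as the receptor that takes up yolk lipoprotein, was at 47.9 and 67.2 CPM against 96 to 120 CPM.

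Leaving out hens 5802 and 5817 together, several of these genes no longer reached the variable limit, with an SD of log2 CPM of 0.36 for INHA, 0.26 for RLN3, 0.16 for WNT4, 0.44 for IHH, 0.32 for STRA6, 0.23 for the homeobox gene DBX2 and 0.4 for the proteoglycan gene CSPG5. With all 6 hens the SDs of these genes were 1.61, 1.7, 1.54, 1.5, 1.62, 1.57 and 1.57. The chloride channel gene ANO2 and the iodide transporter gene SLC5A5 remained above the limit with 0.75 and 0.6. Without hen 5802 alone, WNT4 had an SD of 1.02 and DBX2 of 1.05. Hens 5802 and 5817 were left out together after their values were seen. A fall in SD follows from that choice and carries no test.

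The granulosa list was also lowest in these hens, by a smaller margin. Its summed level was 2671 CPM in hen 5802 and 2564 CPM in hen 5817, against 3294 to 3502 CPM in the other 4 hens, and GJA1, the gap junction connexin that leads it, was at 737 and 606 CPM against 765 to 1039 CPM. Of 19 well-expressed members, 6 were variable (INHA, INHBB, NR5A2, AMH, GSTA3 and INHBA), or 31.6% beside 3.58% of all genes. The lists and classes were chosen with earlier results of these data known. Their shares of variable members, here and below, therefore carry no test. The 6 variable granulosa genes did not move together. INHA, INHBB and NR5A2 were in the group of 89, while AMH had its highest levels in hens 5802 and 5817. INHBA was in a group of 27 genes, most of them highest in hen 5810, and GSTA3 in a group of 14, all lowest in hen 5802. FSHR, the follicle-stimulating hormone receptor, was not low in these hens, lying between 22.7 and 43.2 CPM with its highest level in hen 5802. STAR, the mitochondrial cholesterol carrier, was at 216 and 214 CPM in hens 5802 and 5817 and at 253 to 362 CPM in the others. Other lists also moved among these hens, so this was not particular to granulosa markers. The smooth muscle, macrophage, cholesterol synthesis, iron and erythrocyte lists were lowest in hens 5802 and 5817 too. The cell cycle list was highest in them. Erythrocyte markers summed to 58.6 and 79.6 CPM in hens 5802 and 5817 and to 108 to 308 CPM in the others, with 6 of 13 listed genes well expressed, 5 of those variable and none at 0 in all hens. The globin genes HBA1, HBBA and HBAD were members of the same group of 89, with HBA1 at 17 and 25 CPM in those hens and up to 134 CPM in hen 5835, and globin genes share sequence, so reads may be divided among them. The part of blood content in these differences was not tested.

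A group of 30 genes stood highest in hens 5817 and 5802, by the median deviation from each gene's mean. Of the 30, 20 were highest in hen 5817 and 17 lowest in hen 5835. NCAM2, a neural cell adhesion molecule and the most variable gene of all, was at 101 CPM in hen 5802 and 51.3 CPM in hen 5817, against 1.2 to 9.16 CPM in the other 4 hens, an 84.1-fold range. The chemokine gene CXCL14 was at 35.1 and 24 CPM in those hens, at 13.7 CPM in hen 5826 and at 1.37 to 3.36 CPM in the rest. AMH, the hormone of small growing follicles made by granulosa cells, was high in hens 5802, 5817 and 5826, at 40.8, 38 and 37.2 CPM, and lower in hens 5810, 5840 and 5835, at 21.4, 20.6 and 10.2 CPM. INHA and AMH, both granulosa products, thus had hens 5802 and 5817 at opposite ends. Without hens 5802 and 5817 the SD of NCAM2 was 1.41, against 2.59 with all hens.

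Oocyte transcripts were low but differed among follicles. A group of 20 genes, all highest in hen 5826, held ZP2, a protein of the egg coat made by the oocyte, with 26.6 CPM in hen 5826, 10.3 to 14 CPM in hens 5810, 5817 and 5840, and 0.452 and 0.948 CPM in hens 5802 and 5835. KPNA7, a nuclear import receptor of oocytes in mammals, had the same hens at its extremes, with 12.5 CPM in hen 5826 and 0.835 and 0.299 CPM in hens 5802 and 5835. WEE2, the oocyte kinase that holds meiosis in mammals, was at 15.7 CPM in hen 5826 and 1.5 and 0.998 CPM in hens 5802 and 5835. The T-box factor EOMES was at 11.4 CPM in hen 5826, 4.75 to 5.73 CPM in hens 5810, 5817 and 5840, and 0.835 and 0.449 CPM in hens 5802 and 5835. The lowest of these levels rest on few reads, with 13 counts for ZP2 in hen 5802 and 12 counts for KPNA7 in hen 5835. Mean levels in this group were only 4.07 to 11 CPM. A high level in hen 5826 could thus carry a gene past the limit of 4 CPM, so the shared highest hen carries no test.

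Oocyte genes too low to enter that group had the same hens at both ends. The 13 members of the oocyte list under 4 CPM summed to 38.6 CPM in hen 5826, to 17.2 to 22.1 CPM in hens 5810, 5817 and 5840, and to 4.66 and 5.64 CPM in hens 5802 and 5835. GDF9, a growth factor secreted by the oocyte, was at 6.27 CPM in hen 5826 and at 0.557 and 0.249 CPM in hens 5802 and 5835. DAZL, a germ cell RNA-binding protein, was at 4.2 CPM in hen 5826 and 0.244 and 0.125 CPM in hens 5802 and 5835. BMP15, another oocyte growth factor, was at 5.05 CPM in hen 5826 and had 1 count in hen 5802. Of the list's 5 well-expressed members, only ZP2 and KPNA7 were in the group of 20, and ZP1, BUB1B and ZP3 followed other orders. ZP1 was highest in hen 5810 at 207 CPM and lowest in hen 5840 at 67.9 CPM. BUB1B was at 115 and 110 CPM in hens 5817 and 5802 and lowest in hen 5835 at 62.5 CPM. ZP3 made up 75.6% of the summed oocyte list, at 1198 CPM in hen 5835 and 336 CPM in hen 5817. In birds ZP3 is made by granulosa cells, so the whole-list sum, 570 to 1395 CPM, mostly counts ZP3.

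A group of 27 genes held actins and early response genes and was highest in hen 5810 in 19 of 27. ACTA2, the alpha actin of smooth muscle, was at 13886 CPM in hen 5810 and 9937 CPM in hen 5835, against 4756 to 8008 CPM in the other 4 hens. ACTC1, the cardiac alpha actin, was at 153 and 141 CPM in hens 5810 and 5835, 89.3 CPM in hen 5840, 53.3 CPM in hen 5826, and 22.9 and 17.2 CPM in hens 5802 and 5817. Reads of ACTA2, ACTC1, ACTG2 and ACTA1 can be shared, so the level of each is uncertain. The summed smooth muscle list ranged from 22173 CPM in hen 5817 to 41512 CPM in hen 5810, with 6 of 19 well-expressed members variable (31.6%, beside 3.58% of all genes), while MYH11, the smooth muscle myosin heavy chain, ranged from 1106 to 1787 CPM.

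Immediate early genes, which respond within minutes to stimuli and to tissue handling, were also highest in hen 5810. Their summed level was 2362 CPM there, against 1015 to 1489 CPM in the other 5 hens. EGR1 was at 472 CPM in hen 5810 and 69.5 to 202 CPM elsewhere, FOS at 68.9 CPM in hen 5810 and 12 to 38.5 CPM elsewhere, and the phosphatase gene DUSP1 at 140 CPM in hen 5810 and 41.8 to 66.2 CPM elsewhere. Of 15 well-expressed members, 6 were variable, or 40% beside 3.58% of all genes. The part of tissue handling in the high smooth muscle and early response levels of hen 5810 was not tested.

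Steroid synthesis genes varied unevenly. CYP19A1 was at 3162 CPM in hen 5802, 2485 to 2531 CPM in hens 5810, 5817 and 5826, 1655 CPM in hen 5835 and 1111 CPM in hen 5840, a 2.85-fold range. CYP17A1, which makes androgen precursors in the theca, lay between 656 and 896 CPM and was lowest in hen 5802. CYP11A1, which starts steroid synthesis from cholesterol, ranged from 527 to 783 CPM, and HSD3B1, which forms progesterone, from 272 CPM in hen 5817 to 513 CPM in hen 5835. The receptor for luteinizing hormone, LHCGR, lay between 98.5 and 148 CPM. CYP19A1 belonged to a group of 20 genes, 18 of which were highest in hen 5802 and 12 lowest in hen 5840, with F13A1, the coagulation factor XIII A subunit, at 864 and 969 CPM in hens 5802 and 5826 and 152 CPM in hen 5840.

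**Figure D5:**
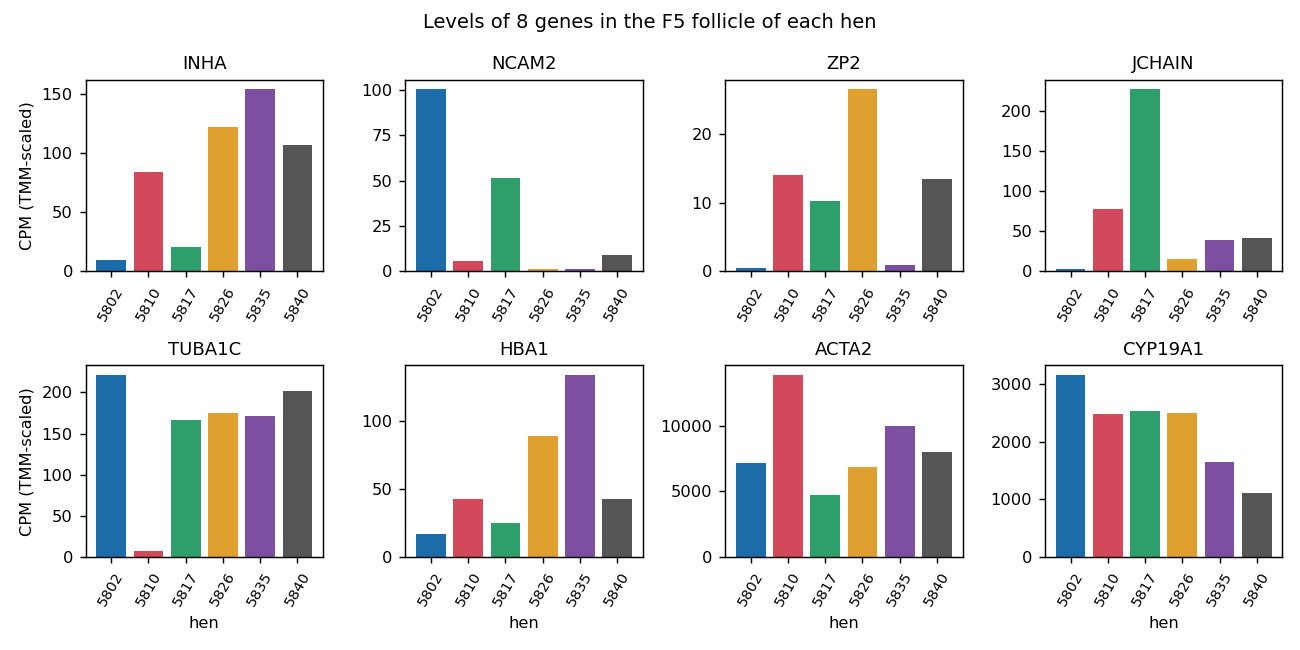
CPM of INHA, NCAM2, ZP2, JCHAIN, TUBA1C, HBA1, ACTA2 and CYP19A1, 1 bar per hen, axes from 0 and different for each gene. INHA and NCAM2 have hens 5802 and 5817 at opposite ends, TUBA1C is low in hen 5810 alone at 7.37 CPM, and JCHAIN is highest in hen 5817 at 228 CPM.

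Immune genes differed from hen to hen in some lists and less in others. The T and natural killer cell list summed to 64.3 to 83.6 CPM, with 0 of 3 well-expressed members variable. Interferon-stimulated genes summed to 517 to 591 CPM with 1 of 15 variable. Antigen presentation genes summed to 1105 to 1706 CPM with 0 of 12 variable. At the 3.58% of all genes, lists this short would hold few or none. JCHAIN, the joining chain of secreted antibodies and the marker of plasma cells, was at 3.41 CPM in hen 5802, 16.1 to 77.4 CPM in hens 5826, 5835, 5840 and 5810, and 228 CPM in hen 5817, and its SD of log2 CPM was 2.05 with all hens and 0.93 without hens 5802 and 5817. The B and plasma cell list summed to 247 CPM in hen 5817 and 18.5 to 96.9 CPM in the others, of which JCHAIN made up 78.2%, while 7 of its 10 genes were under 4 CPM, none at 0 in all hens, and PAX5, a B cell factor, reached no more than 0.299 CPM. In hen 5835 a group of 16 genes was highest in 16 of 16, and it was not made up of immune cell genes alone. It held CSF3R, the receptor that neutrophil-type granulocytes carry, at 22.4 CPM in hen 5835 against 5.21 to 7.9 CPM. It also held CYBB, the oxidase subunit of phagocytes, at 22.7 CPM against 8.28 to 12.9 CPM. The granulocyte and thrombocyte list as a whole was highest in hen 5826, at 2597 CPM, then in hen 5835 at 2545 CPM, with 1369 to 2338 CPM in the others, and the metalloproteinase gene MMP9 made up 95% of it. Macrophage markers summed to 513 CPM in hen 5835 and 293 to 398 CPM in the others, with 4 of 13 well-expressed members variable (30.8%, beside 3.58% of all genes). MARCO, a scavenger receptor of macrophages, was at 104 and 95.9 CPM in hens 5835 and 5840 and 21.5 to 51.1 CPM in the others, whereas CSF1R, the receptor for the macrophage growth factor, stayed between 60.7 and 76.7 CPM.

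Chaperone genes were lowest in hen 5826. HSPA5, the main chaperone of the endoplasmic reticulum, was at 1369 CPM in hen 5826, 2441 to 3023 CPM in hens 5835, 5810, 5817 and 5802, and 3821 CPM in hen 5840. HSP90B1 was at 1499 CPM in hen 5826 and 2424 to 3176 CPM in the others, and CALR, a calcium-binding chaperone, at 1471 CPM against 2235 to 2747 CPM. The endoplasmic reticulum folding list summed to 10756 CPM in hen 5826 and 14720 to 17683 CPM in the others, and the heat shock list to 14118 CPM against 17380 to 23272 CPM. No well-expressed member of either list, 21 and 19 genes, reached the variable limit, beside 3.58% of all genes. Lists this short would hold few or none at that share. Of 90 well-expressed genes in the wider chaperone class, 3 were variable (3.33%). HSPA5 came close to the limit with an SD of log2 CPM of 0.495.

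Genes with a single follicle far from the rest were no more frequent than chance would give. By Dixon's ratio, which compares the gap between the extreme hen and its neighbour with the whole range, 374 of 9341 well-expressed genes (4.0%) had 1 hen apart, where chance alone gives about 1 in 20. Among the 334 variable genes 18 did, which is also near 1 in 20. The 374 genes were not spread evenly over hens. In 74 of them hen 5826 was apart on the low side, against 20 to 41 for any other hen and side. That unevenness was not tested. TUBA1C, an alpha tubulin, was at 7.37 CPM in hen 5810 and 167 to 222 CPM in the other 5 hens, and its SD of log2 CPM was 0.18 without hen 5810 and 1.9 with it. Other alpha tubulins did not share that gap, with TUBA1A at 1092 CPM in hen 5810 and 568 to 854 CPM elsewhere, TUBA1B at 662 CPM against 671 to 812 CPM, and TUBA3E at 161 CPM against 165 to 227 CPM. Alpha tubulin genes are near-identical in their coding parts and estimated counts divide reads among them, so these levels are uncertain and the division was not tested.

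Of the 5 most variable genes, the closest partners by positive correlation over the 6 hens were RASEF for NCAM2 (r = 0.99) and SGK2 for ZP2 (0.99). For the other genes they were ITPKB for JCHAIN (0.97), BIRC7 for KPNA7 (0.99) and DRC7 for ANO2 (0.997). The strongest correlation of JCHAIN was negative, with VAMP1 (-0.997). SGK2 and BIRC7 lay in the oocyte-gene group named above, and DRC7 in the group of ANO2. RASEF had an SD of log2 CPM of 0.32, above the upper quartile of well-expressed genes, and ITPKB one of 0.09, below the lower quartile. All of these pairs were picked as the most extreme among the well-expressed genes over 6 points, so they describe these follicles and carry no test.

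For 13 pairs of genes with a known relation, correlation over the 6 hens was tested, and no pair passed after Benjamini-Hochberg adjustment over 13 pairs, by r or by rho. With an unadjusted exact permutation p under 0.05 there were 2 pairs by r and 0 by rho, and 11 of 13 correlations were positive. HSPA5 and HSP90B1 had r = 0.97 (exact two-sided permutation p = 0.00833, adjusted 0.108) and rho = 0.83 (exact p = 0.0583, adjusted 0.379). Their r was 0.86 to 0.98 when any 1 hen was left out, and 0.46 over the 4 hens left without the 2 farthest from the median of HSPA5. FOS and EGR1 had r = 0.91 (exact permutation p = 0.0278, adjusted 0.181) and rho = 0.83 (exact p = 0.0583, adjusted 0.379), and r was 0.83 to 0.98 without any 1 hen and 0.34 without the 2 farthest hens. COL1A1 and COL1A2, the chains of type I collagen, had r = 0.78 (exact permutation p = 0.0611, adjusted 0.265), and rho = 0.49 (exact p = 0.356, adjusted 0.514), with r = 0.5 without the 2 farthest hens. CYP17A1 and CYP19A1 had r = -0.62 (exact permutation p = 0.189, adjusted 0.447), and rho = -0.77 (exact p = 0.103, adjusted 0.442), with r = -0.75 without the 2 farthest hens.

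Some classes held no variable gene. Of 69 well-expressed ribosomal protein genes, 55 translation factors, 71 proteasome and ubiquitin genes, 58 splicing factors and 71 nuclear-encoded respiratory genes, 0 were variable, beside 3.58% of all genes. Of 34 cell cycle genes and 13 endothelial markers 0 were variable too. In each of these classes and lists alone, a share of 3.58% would leave few or none. That share was also lower among more abundant genes. It was 1.66% for 30 to 100 CPM and for 100 to 300 CPM, 2.92% for 300 to 1000 CPM and 2.83% at 1000 CPM or more. A count of 0 in a single class is thus not read as a trait of that class. As a set, these classes are large enough to hold some variable genes at such shares. Their joint count of 0 was not tested, and the classes were chosen with earlier results of these data known. Among the cell cycle genes TOP2A, a topoisomerase of dividing cells, had an SD of log2 CPM of 0.41 and CENPF, a centromere protein, one of 0.496, just under the limit. Structural classes did hold variable genes, with 4 of 18 collagens (22.2%) and 4 of 38 matrix glycoproteins and proteoglycans (10.5%). The steadiest well-expressed gene was PPP4R2, a regulatory subunit of protein phosphatase 4, between 124 and 127 CPM with an SD of log2 CPM of 0.0177, under its counting error of 0.0229. Among the 10 steadiest genes, 8 varied less than their counting error, including HBP1, ADAR and RPTOR. Fibronectin, FN1, stayed between 3866 and 4683 CPM, and the cholesterol synthesis enzyme gene HMGCS1 between 391 and 437 CPM.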

How the data were processed

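Poly-A RNA of 6 F5 follicles was analysed, and the other libraries of the series were not used. The table that the authors deposited holds raw estimated counts for each gene symbol. Tools listed in the submitters' processing notes are kallisto 0.44.0, bcl2fastq 2.19, DESeq and DESeq2, with the chicken builds galGal6 and GRCg6a and no stated roles, and no source used here says how transcripts became genes. kallisto divides reads of near-identical transcripts by estimation. Of the values of named genes, 0 were not whole numbers. A row with a blank name, 6.6% ± 0.215 of all counts (SD, n = 6), was left out. Poly-A selection favours transcripts that carry a tail.

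Libraries were scaled by TMM in edgeR 4.0.16 (R 4.3.3), and log2 CPM used a prior count of 2. Class shares used named counts without TMM. The spread was set beside the counting error and edgeR's dispersion with an intercept alone (common biological coefficient of variation 0.16, median over genes 0.128). Genes with a mean of 4 CPM or more and an SD of log2 CPM of 0.5 or more were called variable. Co-varying groups came from average linkage on 1 minus Pearson's r, cut at 0.3. Pairs were tested by all 720 orders of the hens (Python 3.11.15, scipy 1.17.1), which cannot give a p under 0.00139. The code was tested on simulated data. Alternatives were library totals, DESeq2 1.42.0 size factors, other prior counts and filters, and leaving out hens. The 6 follicles came from separate hens.

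Genes were named by rule: the 20 with the largest share, the 20 most and 10 least variable, from each list the 4 most abundant and 2 most variable, all genes of the tested pairs, and 5 partners of the 5 most variable genes. PTCH1, GLI1, NR5A2, CTSA, HBAD, AMH, GSTA3, GDF9, DAZL, BMP15, PAX5, DUSP1, ACTA1, F13A1, TUBA1B, TUBA3E and VAMP1 are outside that rule and were named after their values were seen. Ranking per coding length, also in the rule, was not done, since no lengths of this build were used here. The follicles described, the lists and the classes were chosen with earlier results of these data known. Gene symbols are those of the table, of which 11845 of 12470 matched a RefSeq symbol of another build.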

Additional observations from a re-analysis of the deposited data

Results flagged for a closer look

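By chance, about 1 in 20 sets of 6 values has 1 hen as far from the rest as these, by Dixon's ratio, and this was so for 7 of 208 well-expressed named genes and 5 of the 64 library measures, class shares and list sums checked. The ratio was taken on log2 CPM for genes but on unlogged values for library measures, class shares and list sums. A hen far above the rest in an unlogged sum need not be so on a log2 scale. Hen 5802 was far below the others in genes with a count, 11836 against 11943 to 12004, and in genes with 10 counts or more, 10906 against 11063 to 11149. Hen 5802 was also far below in ND4, a mitochondrially encoded subunit of complex I, with 5478 CPM against 6287 to 6650 CPM, and in APOA1, an apolipoprotein, with 465 CPM against 701 to 815 CPM.

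Hen 5810 was far above in the summed level of immediate early genes, 2362 CPM, and far below in TUBA1C, 7.37 CPM. Hen 5817 was far above in the summed B and plasma cell markers, 247 CPM. Hen 5826 was far below in HSP90B1 with 1499 CPM, in CALR with 1471 CPM and in ERG, an endothelial transcription factor, with 27 CPM against 36.1 to 41.6 CPM. Hen 5835 was far above in CSF3R, 22.4 CPM, and hen 5840 in the share of matrix glycoproteins and proteoglycans, 3.37%.

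Counts outside the named genes, in the row with no gene name, made up 6.6% of all counts on average, from 6.24% in hen 5810 to 6.87% in hen 5817. What that row holds was not analysed here.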

How the results depend on the processing

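No paired analysis was possible because 1 stage was used and each hen gave 1 of its libraries. The count of variable genes, 334, was 678 with a minimum mean of 1 CPM, 197 with 10 CPM and 1643 with no filter. It was 222 without hens 5802 and 5817 (an alternative chosen after seeing the data), and 309 to 371 when 1 hen at a time was left out. By library totals it was 351, by DESeq2 size factors 332 and with a prior count of 0.5 it was 337. Of the 20 most variable genes, 11 were shared without hen 5802 and 14 to 19 without any other hen. Counts of well-expressed genes, of genes with 1 hen apart and of genes that held 50% of counts stayed within 1.5 times under every alternative run for them, and the count of correlated pairs stayed at 0.

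Shares moved by more than their SD when mitochondrially encoded genes were left out: collagens 6.4%, ribosomal proteins 5.03%, matrix glycoproteins 3.58%, translation factors 2.62%, splicing factors 1.49%, metalloproteinases 0.976%, nuclear respiratory genes 0.932%, proteasome 0.843%, glycolysis and hypoxia 0.645%, cholesterol synthesis 0.34%, histones 0.286%, lipoprotein handling 0.242% and all other genes 64.7%. With the row of no gene name in the total, they were 8.79% for mitochondrial genes, 3.03% for matrix glycoproteins, 2.22% for translation factors, 0.826% for metalloproteinases, 0.788% for nuclear respiratory genes, 0.714% for the proteasome, 0.545% for glycolysis and hypoxia, 0.205% for lipoprotein handling and 54.7% for all other genes. Both follow from the changed total.

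The correlation of the endothelial genes CDH5 and KDR, -0.04, turned positive with DESeq2 size factors (0.0126), without hen 5802 (0.93), without hen 5835 (0.00195) and without the 2 farthest hens (0.87), ranging from -0.52 to 0.93 when 1 hen at a time was left out, and that of FSHR and LHCGR, 0.19, turned negative without hen 5810 (-0.06) or 5826 (-0.20), with 0.49 as its highest value without 1 hen. The cause was not tested. With 6 hens and 1 follicle each, spread within a hen was not measured.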

Other observations

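Further groups of variable genes followed other hens. In a group of 14 genes, 14 were lowest in hen 5802, among them SERPINI1, a neuronal serine protease inhibitor, at 5.81 CPM in hen 5802, 10.9 CPM in hen 5826 and 40.1 to 60 CPM in the others. The smooth muscle genes CNN1 and DES, calponin and desmin, belonged to it and not to the group of ACTA2, with CNN1 at 59.3 CPM in hen 5802, 213 CPM in hen 5835 and 114 to 138 CPM in the rest. A group of 10 genes was lowest in hen 5817 in 10 of 10, with the WNT antagonist gene WIF1 at 3.51 CPM there and 11.8 to 16.9 CPM in the others, and GJD2, a gap junction connexin gene, at 2.11 CPM there and 5.64 to 13.5 CPM in the others.

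The keratin genes KRT17 and KRT14 were highest in hens 5835 and 5826. KRT17 was at 171 and 116 CPM in those hens, 42.8 CPM in hen 5817 and 15.7 to 20.3 CPM in the other 3. KRT14 was at 156 and 127 CPM in those hens and 49.7 to 71.8 CPM in the other 4. NOP53, a ribosome biogenesis factor, was at 46.1 CPM in hen 5826 and 101 to 121 CPM in the other 5 hens. These genes, apart from CNN1 and KRT14, were chosen after their values were seen.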
